A study of Mus musculus with 8 samples.

Results

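Skin from mice given celastrol was compared with skin from mice given phosphate-buffered saline (PBS), gene by gene, by RNA sequencing of whole skin homogenate. The comparison uses 5 of the 8 libraries of the study, 3 of celastrol skin and 2 of PBS skin, and covers the 23185 of 24612 listed genes that had a normalized value of at least 10 in at least 2 of the 8 libraries. All mice were male, of the C57BL/6J strain, and treated for 21 days from 6 weeks of age. PBS mice were injected under the skin with 0.1 mL PBS. Celastrol mice were injected into the peritoneum each day with celastrol at 1 or 2 mg/kg. Which of the doses each celastrol mouse was given, whether bleomycin was given as well, and what control went with the intraperitoneal route are not stated in the labels. The agent and the route of injection therefore cannot be told apart here. The other group of the study, 3 libraries of skin injected with 0.1 units of bleomycin, entered the same fit and is given only for values side by side. The labels number the libraries but do not state that each came from a separate mouse, so p-values measure the spread between these samples.

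Celastrol is a triterpenoid of the thunder god vine. It is known to activate heat shock factor 1 (HSF1) and the antioxidant regulator NRF2, and to inhibit NF-kB signalling and the proteasome in cultured cells. Bleomycin breaks DNA, and repeated injection under the skin is a common mouse model of scleroderma. In normal dermis, fibroblasts secrete collagens and the enzymes that trim and crosslink them, while the epidermis above switches on keratins, small proline-rich proteins and alarmins when it is wounded or inflamed.

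Values below are the authors' normalized values on a linear scale unless a log2 scale is named, and changes are log2 fold changes of the value plus 1, celastrol minus PBS, with their standard errors (SE) from limma. The depth behind them, estimated from the value of a single read, was 33600000 and 21700000 reads in PBS 2 and PBS 3, against 15100000, 14900000 and 37100000 reads in Celastrol 2, Celastrol 3 and Celastrol 5. Celastrol 2 stood apart on principal component 1, which held 32.7% of the variance, with a score of 237 against -57.3 to -3.63 in the other 7 libraries. It listed 3465 of the tested genes at 0, of which 1261 were at 0 in that library alone, while Celastrol 3, of similar depth, listed 2232 at 0. As a check of the tissue, the basal keratin Krt14 read 21153 and 10857 in PBS and 47446, 29279 and 38639.8 in celastrol libraries. Genes of skeletal muscle, which lies beneath mouse skin, took 2.79% and 2.7% of all values in PBS libraries and 7.33%, 5.78% and 8.37% in celastrol libraries. The part of these differences in the results below was not tested, apart from the fits that leave out a library. At the edge of the filter, the tested gene with the lowest second-highest value reached 10.02 and the removed gene with the highest one reached 9.999.

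Of the 23185 genes, 317 (1.37%) passed an adjusted p of 0.05 in limma, 191 higher (0.824%) and 126 lower (0.543%) in celastrol skin. Without adjustment, 2791 genes had a p under 0.05. The median log2 fold change of all genes was -0.07. Changes were large: 180 of the 191 higher genes and 122 of the 126 lower genes differed by at least 2-fold, and 38 higher and 8 lower genes by at least 16-fold. The libraries of both groups did not overlap for any of the 317, as for 26.9% of all tested genes. Leaving out a library could therefore not turn the direction of any of the 317. The call set was sensitive to single libraries: 35 genes passed when PBS 3 was left out, 39 with Celastrol 5 left out and 84 with PBS 2 left out. Leaving out Celastrol 2 gave 142 calls, Bleomycin 4 gave 163, Bleomycin 3 gave 268, Celastrol 3 gave 307 and Bleomycin 2 gave 419. All 317 kept their direction in each of these fits, and 22 genes passed in all 8 fits that left out a library. In a fit of the compared libraries alone and less Celastrol 2, added after the data were seen, 0 genes passed in limma, the smallest adjusted p was 0.0517, and 2246 genes had an unadjusted p under 0.05.

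**Figure D1:**
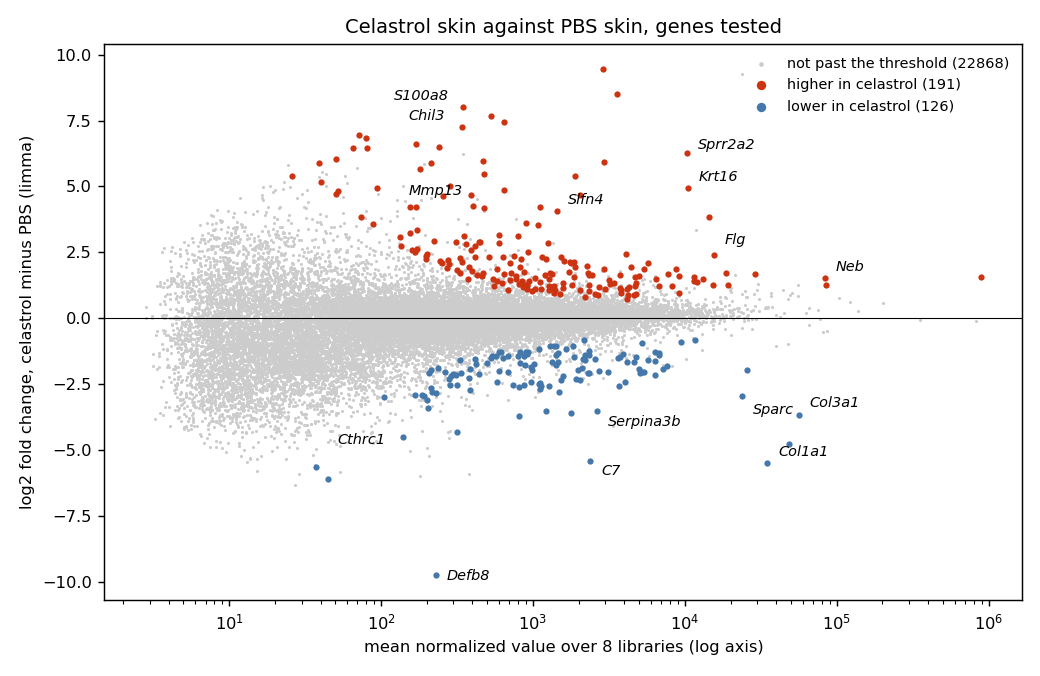
Each point is a tested gene, with its mean normalized value over 8 libraries (log axis) against its log2 fold change, celastrol minus PBS. Red points are the 191 genes past the threshold and higher in celastrol skin, blue points the 126 that were lower, and grey points the 22868 others; Defb8 lies lowest among the genes past the threshold, and Col1a1 and Col3a1 lie far to the right among the genes that were lower.

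Chains of the fibrillar collagens, the main proteins of the dermal matrix, fell in celastrol skin. Of 21 collagen genes tested, 6 fell and none rose, with a list median of -1.93 against -0.07 for all genes. The chains of type I collagen, the main fibril of dermis, led the list. Col1a1 (chr11:94936224-94953043) read 200815 and 48044 in the PBS libraries and 1261, 5061 and 1656 in the celastrol libraries. Celastrol values lay far below PBS values, although the PBS libraries themselves differed about as widely as the celastrol libraries did. The log2 fold change of Col1a1 was -5.48 ± 1.06 (SE, adjusted p = 0.0367, limma). Col1a2 (chr6:4504814-4541545) read 238632 and 100851 against 4139.5, 11689 and 3682, a change of -4.78 ± 0.76 (SE, adjusted p = 0.0167, limma). Col3a1 (chr1:45311538-45349707), the chain of type III collagen, read 241499 and 113615 against 10224, 21101 and 10557, a change of -3.65 ± 0.58 (SE, adjusted p = 0.0167, limma). In all of these chains Celastrol 3 was the highest celastrol library. Type V collagen, which starts fibril assembly, fell as Col5a1 (-3.61 ± 0.73, SE) and Col5a2 (-2.06 ± 0.33, SE), and so did the fibril-associated Col14a1 (-2.35 ± 0.44, SE). Summed over the list, collagens took 3.32% and 1.27% of all values in PBS libraries and 0.165%, 0.252% and 0.146% in celastrol libraries. In whole skin, fewer fibroblasts and less collagen RNA per fibroblast cannot be told apart. The 6 calls were lost without PBS 2, PBS 3, Celastrol 2 or Celastrol 5, where none passed, and the list median then lay between -2.499 and -1.09.

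**Figure D2:**
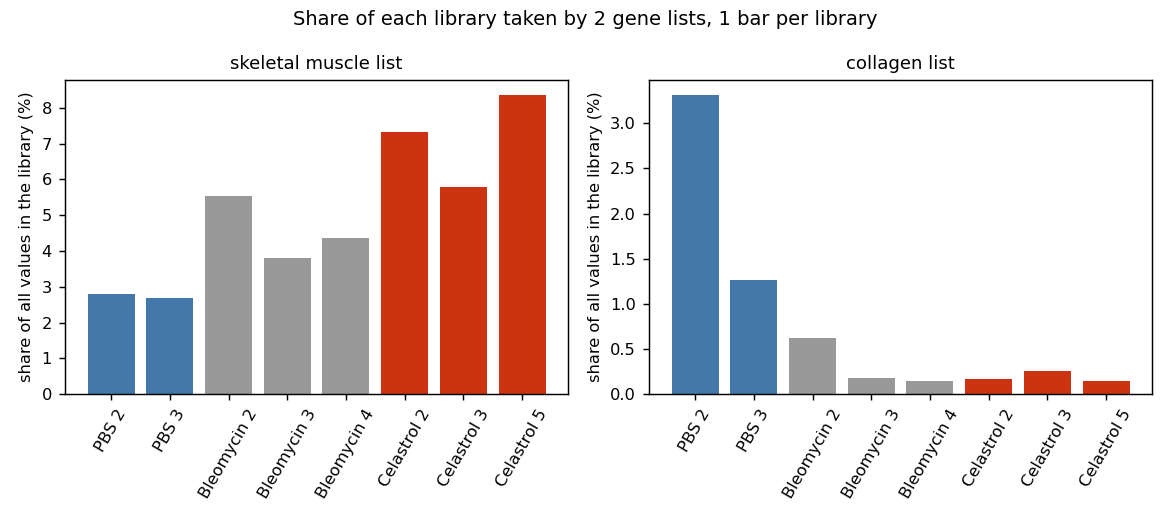
Bars give the share of all normalized values (%) in each library taken by the skeletal muscle list, left, and by the collagen list, right, in PBS (blue), bleomycin (grey) and celastrol (red) libraries. The muscle share was 2.7% to 2.79% in PBS and 5.78% to 8.37% in celastrol libraries, and the collagen share was 1.27% to 3.32% in PBS and 0.146% to 0.252% in celastrol libraries.

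Some genes that process and organise collagen fell too. Of 26 collagen processing genes, 5 fell and none rose (list median -1.30). They were the lysyl oxidases that crosslink collagen, Lox (-1.64 ± 0.33, SE), Loxl2 (-1.77 ± 0.36, SE) and Loxl4 (-2.92 ± 0.58, SE), the procollagen N-proteinase Adamts2 (-2.81 ± 0.47, SE), and Pcolce2 (-2.60 ± 0.53, SE), an enhancer of procollagen C-proteinase. Of 40 matrix glycoproteins and proteoglycans, 8 fell and none rose (median -1.37). Sparc (chr11:55394500-55423184), a collagen-binding matricellular protein, read 71156 and 62272 in PBS and 4946, 13109.7 and 10127 in celastrol libraries. Every celastrol value was far below either PBS value, and the log2 fold change was -2.94 ± 0.37 (SE, adjusted p = 0.00645, limma). Cthrc1, a secreted protein of collagen-producing cells, read 487 and 498 against 23, 13.5 and 28.5, a change of -4.51 ± 0.81 (SE, adjusted p = 0.026, limma). The small leucine-rich proteoglycans Dcn, Lum and Ogn, which bind collagen fibrils, fell by 1.96, 2.07 and 1.87 on the log2 scale, the microfibril gene Fbn1 fell by 1.94 and the matrix protein Ecm2 by 2.29. Cpz, a carboxypeptidase of the matrix that is on none of these lists, fell from 1400.0 and 729 to 77.1, 64.1 and 24.9 (-4.31 ± 0.88, SE). Fibronectin (Fn1) read 21777 and 10717 against 2995, 5953 and 4580.2 and missed the threshold (adjusted p = 0.0888, limma), and periostin (Postn) read 9447 and 9889.6 against 18058, 16682 and 13741 (adjusted p = 0.193, limma). Among 28 matrix proteases and inhibitors, Ctsk, a collagen-degrading cathepsin, fell (-2.56 ± 0.43, SE), with Timp2 (-2.41 ± 0.47, SE) and Adamts12 (-1.05 ± 0.20, SE). The collagenase Mmp13 was the 1 member that rose, from 64 and 21 in PBS to 1727, 405 and 552 in celastrol libraries (4.27 ± 0.83, SE, adjusted p = 0.0367, limma). Celastrol 2 held the highest Mmp13 value. In the fit that left out Celastrol 2, none of the collagen processing genes and 3 of the glycoproteins and proteoglycans passed. The 17 named calls were also refitted with 1 library left out: 17 were lost on leaving out PBS 3, 16 with PBS 2 or Celastrol 5, 14 with Celastrol 2, 9 with Bleomycin 4, 8 with Bleomycin 3 and 1 with Celastrol 3, and none held throughout.

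Among markers of dermal fibroblasts, 4 of 19 fell and none rose (median -1.47). These were Dpt, a dermatopontin of the matrix (-2.09 ± 0.32, SE), Cygb, a cytoglobin (-2.92 ± 0.50, SE), the mesenchymal transcription factor Prrx1 (-1.30 ± 0.23, SE) and Cd34 (-1.47 ± 0.29, SE), which marks fibroblasts, endothelium and hair follicle stem cells. Pdgfra, the defining receptor of the lineage, read 4587 and 4223 in PBS and 1590.2, 2191 and 721 in celastrol libraries and missed the threshold (-1.69 ± 0.39, SE, adjusted p = 0.0722, limma). Calls on the signalling lists of fibrosis are set beside the 1.37% of all tested genes that passed. None of 27 TGF-beta signalling genes passed (median -0.43). Of these, 10 had celastrol values all below PBS and 2 all above, against 13.7% and 13.2% of all tested genes. The ligand Tgfb1 read 436 and 292 against 90.6, 187 and 288 (-1.07 ± 0.48, SE, adjusted p = 0.415, limma). Bambi, a decoy receptor of the pathway, read 55.6 and 41.9 against 0, 0 and 14.2, with groups that did not overlap, and did not pass (adjusted p = 0.194, limma). Of 25 targets of the mechanical regulators YAP and TAZ, 2 fell (8%), the follistatin-like Fstl1 (-1.61 ± 0.25, SE) and Igfbp3, a binding protein of insulin-like growth factors (-2.003 ± 0.32, SE). On that list 12 members had celastrol values all below PBS and 4 all above. Ankrd1 read 9.74 and 36.4 against 129.7, 106 and 406 and lay just outside the threshold (adjusted p = 0.0582, limma). Ccn2, a fibrogenic target of TGF-beta and YAP, read 799 and 1279.9 in PBS and 1676, 1243 and 844 in celastrol libraries, which overlapped. Acta2, the smooth muscle actin of myofibroblasts, read 1282 and 1479.6 against 2122, 1851 and 2682 and did not pass (adjusted p = 0.251, limma). None of 34 Wnt and BMP signalling genes passed, with a median of -0.84 and 18 members whose celastrol values all lay below PBS, against 13.7% of all tested genes. The smallest p there belonged to Bmp4, at 343 and 375 against 32.8, 106 and 93.9 (adjusted p = 0.0768, limma). With Celastrol 2 left out, 2 of the fibroblast markers passed. Of the 6 calls named here, 6 were lost on leaving out PBS 2 or PBS 3 or Celastrol 5, 5 with Celastrol 2, 2 with Bleomycin 4 and 1 with Bleomycin 3 or Celastrol 3; none held in every such fit.

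Epidermal genes of wounding and inflammation rose. Of 22 genes on the stressed and wounded epidermis list, 9 rose and none fell, with a median of 3.70. Among them were small proline-rich proteins, which are crosslinked into the cornified envelope. Sprr2a1 (chr3:92215799-92221912) read 3.03 and 5.51 in PBS and 1875, 298 and 1249 in celastrol libraries (7.44 ± 0.75, SE, adjusted p = 0.00317, limma). Sprr2a2, its neighbour, read 639 and 99.3 against 21316, 15435 and 22720.2 (6.27 ± 0.74, SE, adjusted p = 0.00491, limma). Sprr2a3 read 0.816 and about 0 in PBS libraries, which rounds to 1 read, and 43.1, 166 and 231 in celastrol libraries. The depth-scaled ratio of read counts was 403, with a 95% counting interval of 71.9 to 15944 that takes rounded reads as whole counts. These copies are near identical and overlap in the annotation, so reads cannot be assigned to them with certainty. The wound keratin Krt16 read 1604 and 148 against 21431, 12780.0 and 12412 (4.94 ± 0.98, SE) and its partner Krt6a 2723 and 633 against 27933, 18037 and 12754 (3.82 ± 0.77, SE). For both keratins PBS 2 lay well above PBS 3, and every celastrol library lay above both. Krt6b read 2323 and 0.0731 against 40951, 35922 and 19274 and missed the threshold (adjusted p = 0.107, limma). Gsdmc, a pore-forming gasdermin of the epidermis with close paralogues, read 213 and 27.6 against 5096, 5291 and 4085 (5.94 ± 0.81, SE). Lcn2, a siderophore-binding antibacterial protein, read 11.1 and 14.3 against 545, 285 and 1371 (5.46 ± 0.69, SE), and the serpin Serpinb3a read 66.8 and 16.6 against 788, 1138 and 1159.8 (4.88 ± 0.70, SE). On the wounded epidermis list 6 genes passed with Celastrol 2 left out. Among these 8 calls, 6 were lost on leaving out PBS 3 or Celastrol 5 and 2 with PBS 2 or Bleomycin 4 or Celastrol 2 or Celastrol 3, and 1 held in all 8 such fits.

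Of 32 genes of epidermal differentiation, 2 rose and none fell (median 0.45): filaggrin (Flg), the keratin-bundling protein of the barrier, and Casp14, the protease that degrades it. Flg (chr3:93273523-93293687) read 6016 and 3109 against 23659, 21759.6 and 23111 (2.40 ± 0.25, SE, adjusted p = 0.00379, limma), and the 3 celastrol values were closer to each other than the PBS values were. Casp14 read 1922 and 1527 against 6308, 5709 and 8041 (1.95 ± 0.28, SE). In the basal layer, 1 of 19 genes fell, the stem cell receptor Lgr6, at 1996 and 1852 against 675, 624 and 466 (-1.72 ± 0.27, SE), and none rose (median 0.02). Over all tested genes 1.37% passed, so 1 call on a list this short says little about the list. Celastrol values lay all above PBS for 14 differentiation genes and all below for 1, and for 5 and 3 basal genes. Of all tested genes 13.2% lay above and 13.7% below. Igfl3, an insulin growth factor-like gene, read 13.2 and 12.1 against 612, 423 and 329 (5.01 ± 0.59, SE, adjusted p = 0.00483, limma). The epidermal immunoglobulin-like gene Skint7 read 1782 and 2541 against 359, 366 and 364 (-2.55 ± 0.27, SE, adjusted p = 0.00376, limma) and was the 1 of 11 Skint genes that passed. Igfl3 and Skint7 were chosen after their values were seen. The beta-defensin Defb8 (chr8:19445769-19447607), an antimicrobial peptide gene, read 563 and 1283 in PBS and 0 in all 3 celastrol libraries, at least 228.5-fold lower at a floor of 3 reads per library (adjusted p = 0.00792, limma). Defb8 was also at 0 in all 3 bleomycin libraries. S100a7l2, an S100 gene, fell from 1700.4 and 3194 to 125, 378 and 119.5 (-3.70 ± 0.53, SE), and the serine protease inhibitor Serpina3b from 6127 and 9218 to 717, 1007 and 379 (-3.53 ± 0.44, SE). Arfgef3 fell from 499 and 634 to 41, 140.0 and 47 (-3.10 ± 0.63, SE). Tmprss11d, a serine protease of epithelia, and Adgrg7, an adhesion receptor, were at 0 in both PBS libraries. In celastrol libraries Tmprss11d read 147, 120.1 and 102, at least 45.6-fold higher at the same floor, and Adgrg7 read 90.3, 109.7 and 146, at least 42.7-fold higher. The 11 named calls were also refitted with 1 library left out: 8 were lost on leaving out PBS 3, 6 with Celastrol 5, 4 with PBS 2 and 1 with Bleomycin 4 or Celastrol 2, and 3 held throughout.

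**Figure D3:**
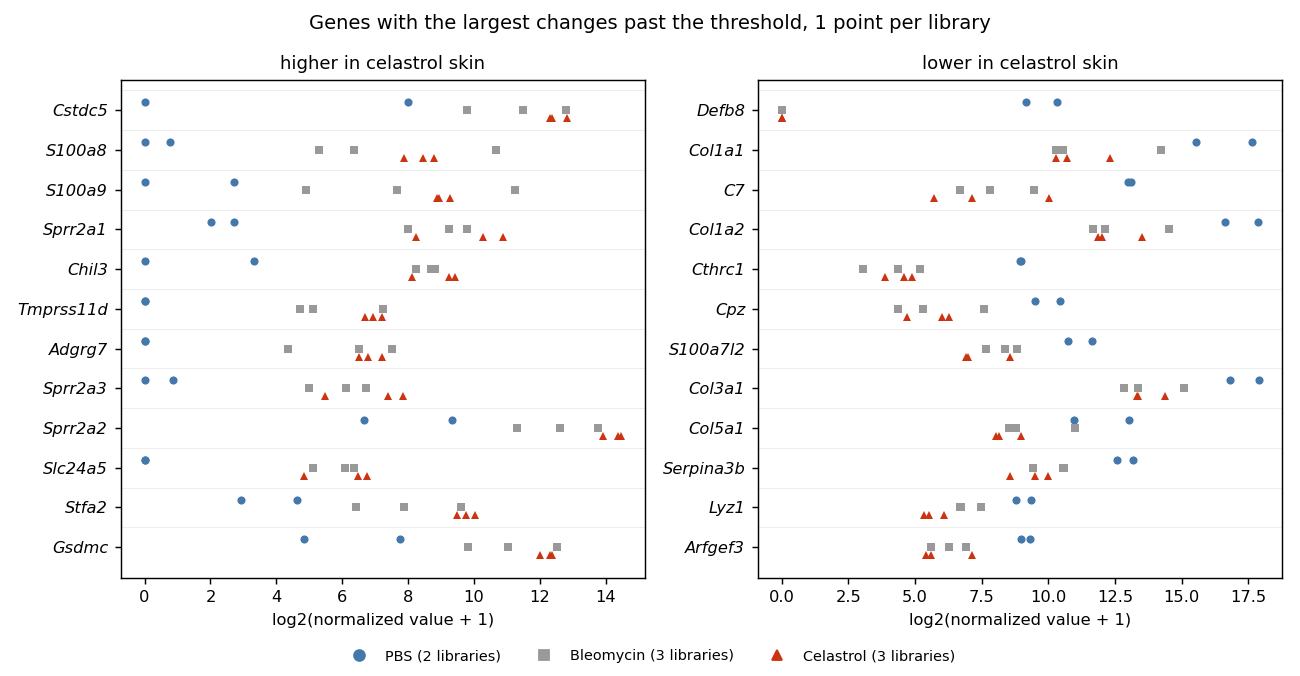
For the 12 genes with the largest increases, left, and the 12 with the largest decreases, right, each point is a library on a log2(normalized value + 1) axis, with PBS as blue circles, bleomycin as grey squares and celastrol as red triangles. For each gene the celastrol points lie on one side of both PBS points, while the bleomycin points lie beside or among the celastrol points for most genes; Defb8 is at 0 in all 6 treated libraries.

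Several genes on the neutrophil list rose, and a few on the macrophage list changed. Of 15 neutrophil genes tested, 5 rose and 1 fell (median 3.61). S100a8 and S100a9 encode the subunits of the alarmin calprotectin, which stressed keratinocytes also make. S100a8 (chr3:90668978-90670036) read 0.695 and 0 in PBS and 233, 351 and 445 in celastrol libraries, with a single read over both PBS libraries. The ratio of read counts, scaled for depth, was 877, with a 95% counting interval of 157 to 34658 (adjusted p = 0.0167, limma). S100a9 read 5.56 and 0 against 486, 616 and 472 (7.67 ± 1.44, SE). The stefin protease inhibitor Stfa2 read 23.6 and 6.62 against 719, 857 and 1044 (5.98 ± 0.79, SE), and Stfa3 read 152 and 37.5 against 2802, 3408 and 3491 (5.39 ± 0.65, SE). Their cystatin-domain neighbour Cstdc5 read 254 and 0 against 5327, 5058 and 7233 (8.50 ± 1.71, SE); these genes are close paralogues that can share reads. Clec4e, the receptor Mincle, rose (4.20 ± 0.64, SE), while Il1r2, a decoy receptor for interleukin 1, fell (-1.42 ± 0.28, SE). Of the receptors that mark neutrophils, Csf3r read 90.1 and 32.3 in PBS and 44.4, 339 and 276 in celastrol libraries (adjusted p = 0.49, limma), with an overlap, and Cxcr2 read 829 and 1283 against 1156, 1681 and 1199.7 (adjusted p = 0.68, limma). Of 30 macrophage genes, 3 rose and 1 fell (median 0.48). Chil3, a chitinase-like protein of activated macrophages, read 9.04 and 0 against 599, 275 and 685 (7.26 ± 0.83, SE, adjusted p = 0.00483, limma). The IgG receptor Fcgr1 (4.18 ± 0.73, SE) and the lysosomal protease Ctss (1.67 ± 0.30, SE) also rose, and Lyz1, a lysozyme with a close paralogue in Lyz2, fell (-3.42 ± 0.48, SE). The defining macrophage marker Adgre1 read 1217 and 1001 against 1021, 1399 and 2103 (adjusted p = 0.634, limma). With Celastrol 2 left out, 5 neutrophil genes were higher, but S100a9 was no longer among them. Among these 11 calls, 9 were lost on leaving out Celastrol 5, 8 with PBS 3, 5 with PBS 2, 4 with Celastrol 3, 3 with Bleomycin 4 or Celastrol 2 and 1 with Bleomycin 3, and 1 held in all 8 such fits.

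Among 35 cytokine and chemokine genes, 4 rose and 1 fell (median 0.39). The monocyte attractant Ccl2 read 25.7 and 17.7 against 149, 206 and 217 (3.08 ± 0.51, SE, adjusted p = 0.0185, limma), and its neighbours Ccl7 (2.87 ± 0.55, SE) and Ccl12 (4.84 ± 0.92, SE) rose with it. Cxcl10, an interferon-induced attractant of T cells, read 34.8 and 13.2 against 161, 234 and 245 (3.22 ± 0.59, SE). Cxcl12, made by dermal fibroblasts, fell from 3814 and 3615 to 1319.7, 1964 and 1092 (-1.39 ± 0.23, SE). Il6 was low in every library (8.35 and 0 against 0, 32.1 and 38.4), and a change was not detectable at this depth. Of 30 complement and acute phase genes, 3 rose and 2 fell (median 0.10). Serum amyloid Saa3 read 101 and 48.9 against 659.8, 1166 and 2954 (4.21 ± 0.75, SE), and Saa1 and Lcn2 were the others that rose. C7, a component of the membrane attack complex, read 8011 and 8783 against 141, 1029 and 51.2 (-5.41 ± 1.05, SE, adjusted p = 0.0367, limma). Serping1, the inhibitor of C1, fell (-1.41 ± 0.23, SE). Celastrol 3 was the highest celastrol library for C7, as it was for the collagens. None of 25 T and NK cell genes, 10 B and plasma cell genes or 12 mast cell genes passed. Of 20 dendritic and Langerhans cell genes 1 fell, the class II chain H2-Eb1 (-1.17 ± 0.22, SE). With 1.37% of all tested genes called, an absence of calls on lists this short does not show that they stayed level. Celastrol values lay all above PBS for 8 mast cell genes and all below for 2. The counts were 1 and 9 for dendritic genes, 2 and 2 for T and NK cells, and 0 and 1 for B and plasma cells. Of all tested genes 13.2% lay above and 13.7% below. The median of the dendritic list was -1.004, and Celastrol 2 lay lowest at -1.30 against -0.69 and -0.51 in the other celastrol libraries. With Celastrol 2 left out, 4 cytokine and chemokine genes were higher and none lower. Of the 11 calls named here, 11 were lost on leaving out PBS 3, 10 with PBS 2 or Celastrol 5, 7 with Bleomycin 4, 6 with Celastrol 3, 5 with Celastrol 2, 3 with Bleomycin 3 and 1 with Bleomycin 2; none held in every such fit.

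Many interferon-stimulated genes rose. Of 40 members, 17 rose and none fell (median 1.33), and 35 had celastrol values all above PBS, against 13.2% of all tested genes. Per library, the median over the list, relative to the PBS mean, was 1.23 in Celastrol 2, 1.22 in Celastrol 3 and 1.53 in Celastrol 5. Ifit1 (chr19:34640871-34650010), which binds foreign RNA caps, read 339.8 and 228 in PBS and 1381, 1422 and 1364 in celastrol libraries (2.31 ± 0.29, SE, adjusted p = 0.00645, limma). Ifit3, next to it, read 444 and 238 against 1189.9, 1741 and 2049.9 (2.31 ± 0.32, SE), and Rsad2, the antiviral enzyme viperin, read 202 and 217 against 1019, 906 and 1078 (2.25 ± 0.34, SE). Zbp1, a sensor of left-handed nucleic acids that can start necroptosis, read 182 and 189.8 against 750.1, 747 and 913 (2.10 ± 0.25, SE, adjusted p = 0.00494, limma) and passed in all 8 fits that left out a library. Oasl2, of the oligoadenylate synthetase family, rose (1.96 ± 0.25, SE), and so did the transcription factor Irf7 (2.87 ± 0.48, SE). Mx1 read 441 and 623 against 968, 1372 and 1007 and lay just outside the threshold (adjusted p = 0.0621, limma). The number of members that passed was 7 without PBS 2, 1 without PBS 3, 9 without Celastrol 2, 12 without Celastrol 3 and 1 without Celastrol 5, while the list median lay between 1.20 and 1.47.

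Proximal promoters of these genes can be set beside the values. The letters searched were GAAANNGAAA on either strand, the core that interferon response elements share; on the opposite strand the same match shows as its reverse complement. In RefSeq promoters of the GRCm38.p6 build, from 250 bases before to 50 after the annotated start, 3.99% of 14127 tested genes with a promoter held it, against 16.9% of the 142 genes with a promoter in the table that rose and 2.06% of the 97 that fell. On the interferon-stimulated list, 28 of the 40 members matched a promoter, and the letters were present for 8 of the 12 matched members that rose (66.7%) and 10 of the 16 that did not pass (62.5%), so members with and without a call held it at about the same share. The windows below, from 170 to 11 bases before the start, show the match in capitals for 3 list members that rose, chosen because they hold it, and for a pair of the Ifi200 cluster described next. Oasl2, which rose and holds no match, is shown beside them. Each window is 5′ to 3′ on the strand of the gene.
Ifit1, chr19:34640719-34640878, + strand: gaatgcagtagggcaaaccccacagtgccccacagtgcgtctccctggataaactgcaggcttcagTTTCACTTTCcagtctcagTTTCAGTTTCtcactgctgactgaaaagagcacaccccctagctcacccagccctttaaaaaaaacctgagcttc
Ifit3, chr19:34583359-34583518, + strand: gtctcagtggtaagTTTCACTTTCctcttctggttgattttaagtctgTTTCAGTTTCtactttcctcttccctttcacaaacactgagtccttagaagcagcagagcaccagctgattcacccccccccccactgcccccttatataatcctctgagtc
Rsad2, chr12:26456463-26456622, - strand: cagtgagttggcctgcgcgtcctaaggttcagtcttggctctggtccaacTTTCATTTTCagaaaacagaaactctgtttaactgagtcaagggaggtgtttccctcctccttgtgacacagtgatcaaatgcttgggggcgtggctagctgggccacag
Oasl2, chr5:114896764-114896923, + strand: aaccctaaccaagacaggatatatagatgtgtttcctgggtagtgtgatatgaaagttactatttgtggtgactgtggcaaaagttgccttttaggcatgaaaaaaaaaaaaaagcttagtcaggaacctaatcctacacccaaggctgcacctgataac
Ifi206, chr1:173491329-173491488, - strand: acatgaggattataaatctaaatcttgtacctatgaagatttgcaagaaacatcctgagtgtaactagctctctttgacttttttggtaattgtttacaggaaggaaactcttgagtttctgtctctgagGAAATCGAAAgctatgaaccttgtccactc
Ifi213, chr1:173599283-173599442, - strand: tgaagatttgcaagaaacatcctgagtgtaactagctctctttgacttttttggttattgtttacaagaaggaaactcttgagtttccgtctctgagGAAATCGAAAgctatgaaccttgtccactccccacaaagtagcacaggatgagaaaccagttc
Ifit1 held matches starting 104 and 85 bases before the start, Ifit3 at 156 and 122, and Rsad2 at 120. The Ifi206 and Ifi213 windows hold the same match, 40 and 73 bases before their annotated starts, within nearly the same surrounding letters. Oasl2, Irf7, Ifi44 and Ifit2 rose with no match in the promoter, as did Ifi209 of the Ifi200 cluster. A match is a description of letters in this window and not a measured site.

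Families with interferon-inducible members that the list did not hold moved in the same direction. They were chosen after their values were seen. The Ifi200 cluster on chromosome 1 encodes the PYHIN proteins, many of which sense DNA. Of its 14 genes tested, 6 rose and none fell (median 0.98). Ifi213 read 185 and 187 in PBS and 1017, 1262 and 919 in celastrol libraries (2.497 ± 0.25, SE, adjusted p = 0.00275, limma), and Ifi206 read 101 and 100.2 against 658, 917 and 661 (2.86 ± 0.32, SE, adjusted p = 0.00469, limma). For both, the PBS libraries were nearly equal and each celastrol value was several times as high. The best known DNA sensor of the family, Aim2, read 294 and 386 against 428, 614 and 474 and did not pass (adjusted p = 0.494, limma). Schlafen genes, regulators of immune cell growth, gave 3 calls among 8, all higher (median 1.24). Slfn4 read 147 and 65.1 against 1555, 1513 and 1982 (4.08 ± 0.39, SE, adjusted p = 0.00275, limma) and Slfn1 96.7 and 72.8 against 669.7, 1351 and 1243 (3.62 ± 0.35, SE). Slfn2 rose from 538 and 352 to 1259, 1325 and 1539 (1.65 ± 0.23, SE). Ms4a4c, a membrane protein of myeloid cells, read 138 and 87.2 against 1107, 1359.7 and 1428 (3.55 ± 0.31, SE). Ifi206, Ifi213, Slfn1, Slfn4 and Ms4a4c passed in all 8 fits that left out a library, while Slfn2 did not. Members of both families are close paralogues that can share reads.

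Some targets of the DNA damage regulator p53 rose. Of 30 members, 6 rose and none fell (median 0.61). Ccng1, cyclin G1, read 5443 and 5849 in PBS and 12903, 14106 and 18278 in celastrol libraries (1.40 ± 0.18, SE, adjusted p = 0.00742, limma). Pmaip1, the pro-apoptotic protein Noxa, read 243 and 242 against 759.9, 1046 and 1062 (1.96 ± 0.29, SE, adjusted p = 0.0125, limma). Mdm2, the ligase that degrades p53, read 1544 and 1574 against 2617, 3042 and 2968 (0.88 ± 0.17, SE), and Trp53inp1, an inducer of autophagy, read 3645 and 4743 against 11373, 9783 and 8203 (1.22 ± 0.22, SE). The death receptor Eda2r (1.54 ± 0.30, SE) and the exonuclease Aen (1.05 ± 0.22, SE) were the others that rose. The arrest gene Cdkn1a read 1214 and 542 against 1866, 1184 and 1903 and did not pass (adjusted p = 0.321, limma), and PBS 2 lay just above Celastrol 3. Among 40 cell cycle genes, 1 rose (2.5%, against 1.37% of all tested genes that passed), the ribonucleotide reductase subunit Rrm1 (0.94 ± 0.19, SE), and none fell (median 0.69). Of the 40, 23 had celastrol values all above PBS and 0 all below, against 13.2% and 13.7% of all tested genes. Of the p53 targets, 3 passed with Celastrol 2 left out. The 7 named calls were also refitted with 1 library left out: 7 were lost on leaving out PBS 2 or PBS 3, 6 with Celastrol 5, 5 with Celastrol 3, 4 with Bleomycin 3 or Bleomycin 4 or Celastrol 2 and 1 with Bleomycin 2, and none held throughout.

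Genes of skeletal muscle rose. Of 40 members, 11 rose and none fell (median 1.20). Mybpc1, a myosin-binding protein, read 6401 and 6256 in PBS and 16449.6, 16484 and 16389.7 in celastrol libraries (1.38 ± 0.17, SE, adjusted p = 0.00521, limma), with hardly any spread within either group. Neb, the giant thin-filament protein nebulin, read 39482 and 41926 against 109589, 102756 and 146097 (1.54 ± 0.22, SE). The fast myosin Myh4 read 53731 and 53459.6 against 131513, 119264 and 135756 (1.26 ± 0.21, SE), and the fast troponins Tnni2 (1.63 ± 0.22, SE) and Tnnc2 (1.65 ± 0.26, SE) rose with it. Outside the list and chosen after their values were seen, Trdn, the triadin of calcium release, read 1981 and 2922 against 8204, 6642 and 7401 (1.62 ± 0.19, SE), and Ppp1r3a, a glycogen-targeting phosphatase subunit of muscle, read 3054 and 3539 against 9190.0, 8302 and 10014 (1.48 ± 0.17, SE). On the myofibroblast and smooth muscle list, 4 of 26 rose and none fell (median 0.28). Of these, Des (1.87 ± 0.28, SE), Tpm1 (0.97 ± 0.21, SE) and Tpm2 (1.24 ± 0.23, SE) are also abundant in skeletal muscle, and Rgs5 (0.74 ± 0.15, SE) marks pericytes. The share of muscle in a piece of skin was not measured apart from RNA, so more muscle tissue in a sample and more of these transcripts per fibre cannot be told apart. Without Celastrol 2, 8 of the 40 list members passed, with 2 without PBS 2, 1 without PBS 3 and 1 without Celastrol 5, while the list median lay between 0.95 and 1.38. On the myofibroblast and smooth muscle list, 2 genes passed on leaving out Bleomycin 3, 1 on leaving out PBS 2, Bleomycin 4 or Celastrol 2, and none on leaving out PBS 3 or Celastrol 5. Trdn and Ppp1r3a passed in all 8 fits that left out a library.

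Some lipid genes of the sebaceous gland fell, and none of the adipocyte list passed. Of 23 sebaceous genes, 4 fell and none rose (median -1.05). Far2, a fatty alcohol synthase, read 13593 and 14984 against 4373, 4732 and 1556 (-2.17 ± 0.41, SE). Soat1, which esterifies cholesterol, read 9491 and 8392 against 3387, 3669 and 1846 (-1.65 ± 0.33, SE), and the sebocyte desaturase Scd3 read 2238 and 4496 against 522, 717 and 411 (-2.56 ± 0.49, SE). Cidea, a lipid droplet protein of sebocytes and brown fat, read 812 and 943 against 217, 305 and 275 (-1.73 ± 0.28, SE, adjusted p = 0.0172, limma). On the sterol synthesis list 1 of 23 genes fell, Msmo1, at 6886 and 7014 against 2939.8, 2312 and 2171 (-1.50 ± 0.23, SE), with a median of -0.65. The fatty acid elongase Elovl5, chosen after its values were seen, read 9996 and 13119 against 2455, 3544 and 2536 (-2.03 ± 0.22, SE, adjusted p = 0.00379, limma) and passed in all 8 fits that left out a library. None of 24 adipocyte genes passed (median 0.12), and the groups overlapped for each of them. Over all tested genes 1.37% passed, and the groups did not overlap for 26.9%. Leptin (Lep), a fat hormone to which celastrol is known to sensitise obese mice, read 482 and 553 against 309, 218 and 497 (adjusted p = 0.611, limma). None of 26 insulin and leptin signalling genes passed (median -0.20, smallest adjusted p = 0.0595, limma). On that list 9 members had celastrol values all below PBS and 3 all above, against 13.7% and 13.2% of all tested genes. Leaving out Bleomycin 2 gave 2 lower calls there, and leaving out Bleomycin 4 gave 1. Of 17 brown fat genes, 2 fell, Cidea and the transcription factor Zic1 (-2.20 ± 0.37, SE). Of the sebaceous genes, 1 passed with Celastrol 2 left out. Among these 7 calls, 6 were lost on leaving out PBS 2 or PBS 3, 5 with Celastrol 5 and 3 with Bleomycin 4 or Celastrol 2, and 1 held in all 8 such fits.

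The stress responses that celastrol is known to act on gave no calls in skin at 21 days. None of 29 heat shock and HSF1 targets, 26 NRF2 targets, 27 genes of the unfolded protein and integrated stress response, 29 proteasome subunits or 21 NF-kB feedback genes passed, where 1.37% of all genes did. Their medians were 0.30, 0.26, 0.10, 0.34 and -0.12, against -0.07 for all genes. Of the heat shock list, 13 members had celastrol values all above PBS and 3 all below, and of the proteasome subunits 13 lay above and none below. The counts above and below were 8 and 2 for NRF2 targets, 9 and 2 for unfolded protein genes, and 2 and 2 for NF-kB feedback genes. Of all tested genes 13.2% lay above and 13.7% below. When Bleomycin 2 was left out, 1 heat shock gene passed, higher in celastrol skin. The nearest to the threshold was Hspa8, the constitutive cytosolic chaperone, at 17030.3 and 17035 in PBS and 28546, 27202 and 34677 in celastrol libraries (0.82 ± 0.19, SE, adjusted p = 0.078, limma). The co-chaperone Dnaja4 read 715 and 723 against 1236, 1154 and 1119 (adjusted p = 0.133, limma). The inducible chaperones Hspa1a and Hspa1b, near-identical copies that can share reads, overlapped between groups. Hspa1a read 1146 and 209.7 against 298, 539 and 305, and Hspa1b read 1891 and 298 against 433, 308 and 617. Their log2 fold changes, -0.42 ± 0.76 and -0.79 ± 0.80 (SE), turned to 0.80 and 0.54 without PBS 2. Of the classical NRF2 targets, Hmox1 read 673 and 467 against 579, 499 and 831 and Nqo1 156 and 168 against 102, 101 and 191. The glutathione transferase Gsta4 read 233 and 106 against 1136, 825 and 610.5 and did not pass (adjusted p = 0.256, limma). Hspa5, the chaperone of the endoplasmic reticulum, read 6974 and 6529 against 10792, 9108 and 9549 (adjusted p = 0.23, limma), and the proteasome subunit Psmb7 1337 and 1588 against 2421, 2218 and 2278 (adjusted p = 0.142, limma). Nfkbia, the inhibitor that NF-kB itself induces, read 1172 and 1497 against 1814, 2148 and 2112 (adjusted p = 0.216, limma). A p that misses the threshold does not show that these genes stayed level.

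**Figure D4:**
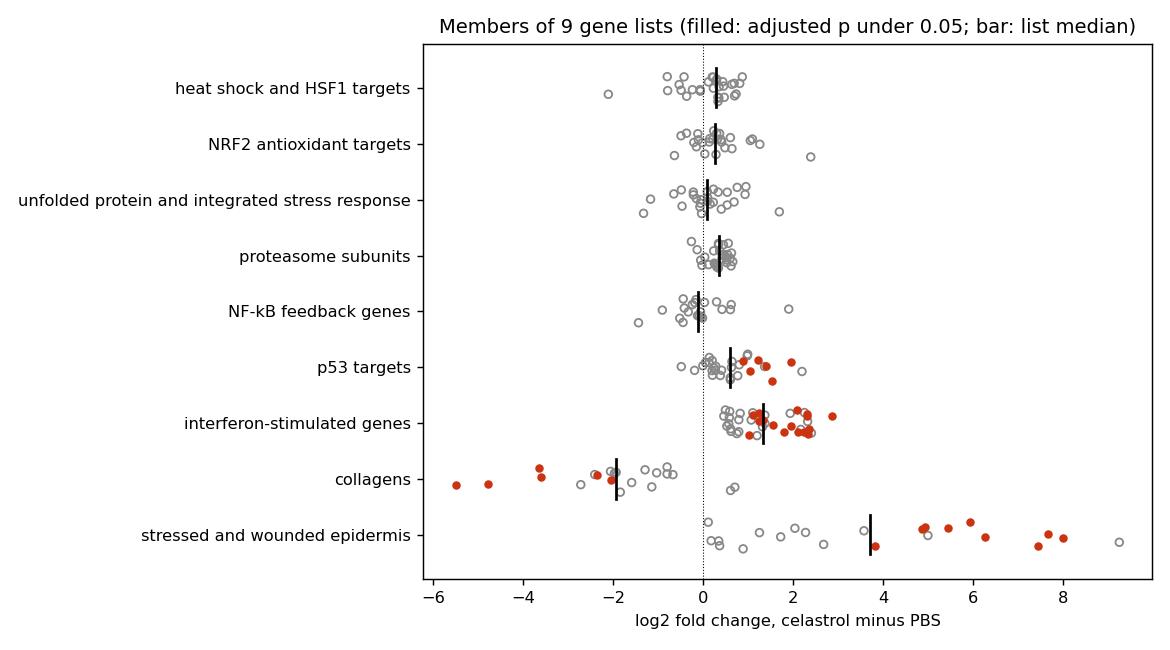
Each circle is a gene, placed by its log2 fold change, celastrol minus PBS, with filled circles past an adjusted p of 0.05 and a black bar at the list median. No circle is filled on the heat shock, NRF2, unfolded protein, proteasome and NF-kB lists, whose medians lie from -0.12 to 0.34, while the interferon, p53 and wounded epidermis lists have filled circles to the right of 0 and the collagen list to the left.

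Of the other lists, xenobiotic and steroid metabolism held 3 genes of 28 that rose (median -0.15). They were the glutathione transferase Gsto1, at 929.8 and 669.8 against 3378, 2362 and 3750.5 (1.97 ± 0.26, SE), the glucuronosyltransferase Ugt1a7c (1.83 ± 0.33, SE) and the efflux pump Abcg2 (0.94 ± 0.19, SE). On the pigment list 1 of 13 rose, the melanosomal exchanger Slc24a5, which was at 0 in both PBS libraries and read 27.9, 87.7 and 107 in celastrol libraries, at least 27.6-fold higher. On the endothelial list 1 of 22 fell, the angiopoietin receptor Tek, at 1018 and 959 against 417, 447 and 368 (-1.27 ± 0.23, SE). None of 41 nuclear oxidative phosphorylation genes or 15 mitochondrially encoded genes passed, with medians of 0.48 and 0.78. No gene passed on the lists of nerve and Schwann cells, blood, hair, fatty acid oxidation, immediate early genes, circadian clock, class I antigen presentation or structured nuclear RNAs. Only 12 of 38 hair genes and 9 of 12 blood genes could be tested. With 1.37% of all tested genes called, an absence of calls on lists this short does not show that they stayed level. Replication-dependent histone genes were not analysed here. Of the 5 calls named here, 5 were lost on leaving out PBS 3 or Celastrol 5, 4 with PBS 2, 3 with Bleomycin 4 or Celastrol 2, 2 with Celastrol 3 and 1 with Bleomycin 3; none held in every such fit.

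**Figure D5:**
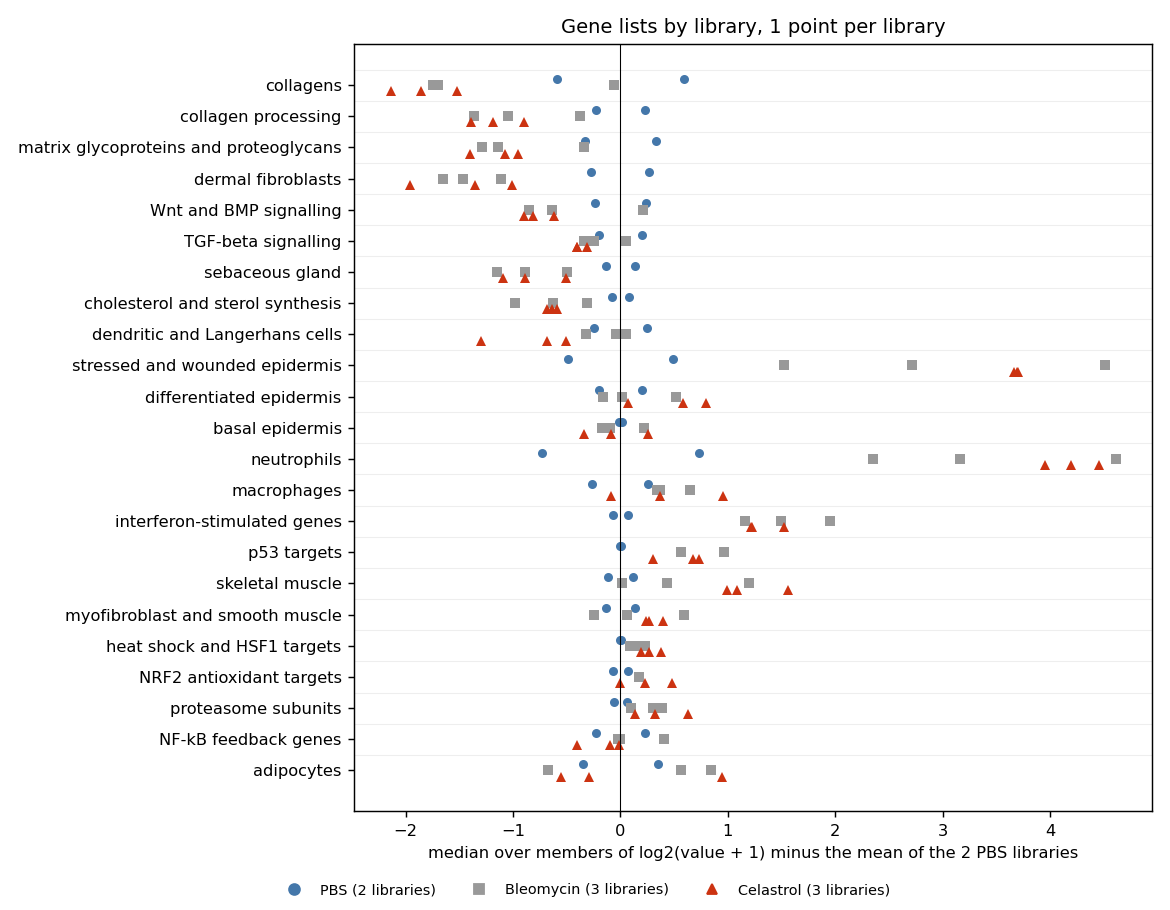
Each point is a library, placed by the median over the members of a gene list of log2(value + 1) minus the mean of the 2 PBS libraries. PBS points (blue circles) straddle 0 by construction; celastrol points (red triangles) lie between 3.66 and 3.70 for wounded epidermis, between 1.22 and 1.53 for interferon-stimulated genes and between -2.14 and -1.52 for collagens, and bleomycin points (grey squares) are spread more widely for several lists.

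Celastrol skin was set beside bleomycin skin to see where it differed from the other treated group. Between celastrol and bleomycin libraries, 0 of 23185 genes (0%) passed in limma, the smallest adjusted p was 0.975, and 898 genes had an unadjusted p under 0.05. A count of 0 does not show that the groups were alike. Bleomycin against PBS gave 157 calls (0.677%), 105 higher and 52 lower, from the same PBS libraries, so the values of both comparisons share their control and are given only side by side. The list medians against PBS were 1.33 in celastrol and 1.52 in bleomycin skin for interferon-stimulated genes, 3.70 and 2.69 for wounded epidermis, 3.61 and 2.59 for neutrophils, -1.93 and -1.10 for collagens, -1.47 and -1.41 for fibroblasts, and 1.20 and 0.63 for skeletal muscle. Bleomycin 2 was nearer to PBS than the other bleomycin libraries for collagens, with a list median of -0.06 against -1.75 and -1.70. Slfn4 read 1779, 1387 and 3091 in bleomycin libraries, a log2 fold change of 4.31 against PBS, beside 4.08 in celastrol skin. Col1a1 read 18991, 1482 and 1238, a change of -4.91 beside -5.48. Mmp13 read 65.4, 336 and 69.8, below all celastrol values, and the direct difference of 2.65 did not pass. Muscle genes, chosen after their values were seen, are given next, though other genes such as Mmp13 had larger direct differences. Myh4 read 77403, 56208 and 57001, a direct difference of 1.03, and the calcium store protein Casq1 read 3309, 2332 and 1705 against 5285, 4734 and 6350.3 in celastrol and 3136 and 3822 in PBS libraries, a direct difference of 1.20. The muscle list took 3.81% to 5.53% of values in bleomycin libraries, between its shares in PBS and celastrol libraries. Bambi read 33.1, 82.3 and 40.5 in bleomycin libraries, close to PBS, and 0, 0 and 14.2 in celastrol libraries, a direct difference of -4.31 that did not pass.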

How the data were processed

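Total RNA from skin homogenate was extracted with TriZol and made into libraries with a VAHTS total RNA kit, per the labels' protocols. For every gene the deposited table gives a signal in each library. It is an estimated read count that the authors divided by a DESeq2 size factor (poscounts), per the file headers. The submitters' processing notes name Partek 10.0.22, STAR 2.7.3a and the mm10 build; aligner settings, annotation, counter and use of strand are not given in the sources used here. Between 58.5% and 66.9% of values per library were within 0.03 reads of a whole read, so no count test was run. All 8 libraries entered a single limma 3.58.1 fit in R 4.3.3 on the log2 scale after a pseudocount of 1 was added, using lmFit and eBayes with its trend option, and the contrast of celastrol minus PBS was taken. Two-sided p-values were adjusted by the Benjamini-Hochberg method over the 23185 tested genes, with a threshold of 0.05. A fold change on this scale understates the change of genes that are low in every library of a group. Where 1 PBS library was at or about 0 and the other was not, it depends strongly on that library and can overstate the change. Cstdc5 and Gm10800 are such genes. With 3 against 2 libraries no rank or permutation test could reach the threshold, so none was made.

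Gene lists (49, with 1231 distinct genes) are described by counts of calls and medians, beside those of all genes, with no set test. The members, the lists and the alternatives were chosen with earlier results of these data known. Genes were named by a rule: the 12 highest and 12 lowest log2 fold changes among called genes with a mean of at least 50 and groups that do not overlap, predicted genes left out, up to 4 members of each list with the smallest p, and a few set genes of fibrosis and celastrol action. The text gives those of the lists it describes, and other called members. Bounds against a group at 0 use 3 reads per library and, like the 95% intervals, cover counting error only. Positions are those of the deposited table on mm10. The procedure was tested on simulated data. The simulated noise was independent between libraries and equal in spread, with no outlying library, so that test does not bear on calls that depend on a single library. Alternatives were another pseudocount, filter, scaling, weighting, variance model, sample set and replicate block, and leaving out each library.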

Additional observations from a re-analysis of the deposited data

How the results depend on the processing

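All 317 calls kept their direction under every alternative run, but their number did not hold. As the groups did not overlap for these calls, fits that left out a library or changed the pseudocount could not turn their direction. The fit of only the 5 libraries compared gave 159 calls (103 higher, 56 lower), and a fit without a mean-variance trend gave 19 (8 higher, 11 lower). Leaving out 1 library at a time gave 35 to 419 calls, with 25 to 250 higher and 4 to 169 lower. The lowest counts came without PBS 3 (35), Celastrol 5 (39) and PBS 2 (84), and counts of 142 and 163 came without Celastrol 2 and Bleomycin 4. The fit of only the libraries compared, less Celastrol 2, chosen after seeing the data, gave 0 calls (0 higher, 0 lower). Other pseudocounts, filters, scalings, library weights and a robust variance gave 293 to 398 calls. The cause of the changes in these counts was not tested.

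A replicate block gave 41 calls (30 higher, 11 lower), of which 38 were also called without it; Celastrol 5 and Bleomycin 4, whose numbers have no partner, drop out of such a fit. The numbers share no stated origin, and the deviations of same-numbered PBS and celastrol libraries correlated at 0.02 for number 2 and 0.19 for number 3 over 16628 genes. Those of PBS and bleomycin libraries correlated at 0.45 and 0.23, and those of bleomycin and celastrol libraries at 0.05 and 0.09. Since not every pair was over 0.1, the samples were not treated as paired. These correlations cannot decide the question, because the deviations of the 2 PBS libraries mirror each other. PBS 2 and the differently numbered Celastrol 5 also correlated at 0.19. Genes near 0 turned direction: Hmox1 was -0.0594 with the replicate block, and ranged from -0.11 to 0.41 when 1 library was left out. Over the same fits Ccn2 ranged from -0.0845 to 0.59, Hspa1a from -1.64 to 0.80 and Hspa1b from -2.12 to 0.54. Of 131 named genes that passed, 19 passed in all 8 fits that left out a library. With 2 PBS libraries, and with depths from 14900000 to 37100000 reads, genes of a few reads were limited by depth.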

Other observations

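The smallest adjusted p of the comparison belonged to a predicted gene among repeats of pericentromeric satellite DNA, the tandem repeats beside mouse centromeres. These loci were chosen after their values were seen. Of 11 such loci tested, 9 were higher in celastrol skin and none lower (median 4.95). Gm10719 (chr9:3017408-3021594) read 89.7 and 143 in PBS and 2812, 2772 and 3078 in celastrol libraries (4.66 ± 0.29, SE, adjusted p = 0.00021, limma). Gm10800 (chr2:98666547-98667302) read 31.5 and about 0 against 3460.0, 3954 and 4581 (9.44 ± 1.03, SE, adjusted p = 0.00415, limma). Its log2 fold change ranged from 6.93 to 11.96 when 1 library was left out. In bleomycin libraries Gm10719 read 1688, 2383 and 3306, and Gm10800 read 2629, 3603 and 4890.2. Reads of satellite repeats map to many places, so how they were assigned bears on these values, and the assignment is not given in the sources used here. Gm10719, Gm10721, Gm10800, Gm10801 and Gm21738 passed in all 8 fits that left out a library.

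Some genes that rose lay side by side on chromosomes, a description for which no test was made. Runs of at least 3 called genes, each within 500000 bases of the next, held 41 of the 191 higher genes in 10 runs and none of the 126 lower genes. They were the Ifi200 genes on chromosome 1, the Sprr2a genes with Lce1g on chromosome 3, the lectin receptors Clec4n, Clec4d and Clec4e with Apobec1 and C3ar1 on chromosome 6, Saa1, Saa3 and Ldha and also Tnni2, Tnnt3 and H19 on chromosome 7, satellite-region loci on chromosome 9, the chemokines Ccl2, Ccl7 and Ccl12 and also the Schlafen genes on chromosome 11, the stefin genes with Parp9 and Fam162a on chromosome 16, and the Ifit genes on chromosome 19. Among genes outside every list, the tendon gene Tnmd read 529 and 545 in PBS and 70.6, 75.9 and 59.8 in celastrol libraries (-2.95 ± 0.49, SE, adjusted p = 0.0196, limma), and the eosinophil-associated ribonuclease Ear6 read 156 and 72.9 against 0, 0 and 2.89 (-6.10 ± 1.10, SE, adjusted p = 0.0262, limma). Both were chosen after their values were seen, and both calls were lost on leaving out PBS 2, PBS 3 or Celastrol 5. Of the 19 calls given by symbol up to here in this paragraph, all 19 were lost on leaving out Celastrol 5. Leaving out Bleomycin 4 lost 12, Celastrol 3 lost 9, Celastrol 2 lost 8, Bleomycin 3 lost 6 and Bleomycin 2 lost 2. Members of the runs given only by family are not among the 19. Of those members, Ifi206, Ifi213, Sprr2a1, Slfn1, Slfn4, Gm10719 and Gm10721 passed in each fit that left out a celastrol or bleomycin library.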
